A study of Mus musculus with 10 samples.

Results

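The anterior fontanelle (AF) is the unossified gap between the frontal and parietal bones, and it is filled by a connective tissue that carries transcripts known from tendon and ligament. Among the 23080 genes counted in bulk RNA-seq libraries of this tissue, 7 were followed here by their symbols. They are the transcription factor genes *Scx*, *Mkx*, *Egr1* and *Egr2* and the genes of the membrane and secreted proteins *Tnmd*, *Chodl* and *C1qtnf3*. These 7 genes were selected from earlier results of the same libraries, in part by how they differed between the genotypes, so that their levels and differences between the labels are given as a description. Where calls among the 7 are counted, the share of all genes called stands beside them and nothing is read from the count. All 7 passed the filter on low counts, which left 16267 genes. The tissue came from mouse embryos at E18.5, shortly before birth, with 5 libraries labelled WT and 5 labelled as a neural crest cell knockout of *Fgfr2* (genotype Wnt1-Cre; Fgfr2fl/fl). Wnt1-Cre expresses Cre recombinase in the neural crest, from which the frontal bones and the AF mesenchyme arise, whereas vessel endothelium, blood cells and osteoclasts in the same piece of tissue have another origin and keep the receptor. The sample left out skin and brain and kept bone. The study describes the control and mutant embryos as littermate pairs, and the labels do not say which libraries form a pair or whether the controls carried Cre or floxed alleles.

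Tendons and ligaments are built by fibroblasts that secrete aligned collagen fibrils. Scleraxis (*Scx*), a basic helix-loop-helix factor, marks the progenitors of these cells and binds E-boxes, and Mohawk (*Mkx*), a homeobox factor, acts in tendon collagen production. The zinc finger factors *Egr1* and *Egr2* are immediate early genes, switched on within minutes by growth factor or mechanical signals in many cell types, and also act in tendon matrix expression. Tenomodulin (*Tnmd*) is a transmembrane glycoprotein of mature tendon and ligament cells and a known target of scleraxis. Chondrolectin (*Chodl*) is a membrane protein with a C-type lectin domain, and *C1qtnf3* encodes CTRP3, a secreted protein of the C1q and tumour necrosis factor superfamily first known from cartilage, which the study used as a marker of ectocranial mesenchyme. In the skull, scleraxis marks cells of sutures and fontanelles.

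Promoter sequences were matched by symbol to RefSeq on GRCm38.p6 for 4 of the 7 genes, *Tnmd*, *Chodl*, *C1qtnf3* and *Egr2*. They are shown because *Tnmd* and *Chodl* had the largest differences between the labels and because an E-box or a CArG box is where scleraxis or serum response factor can bind. Each run gives the 250 bases before a RefSeq start, on the plus strand and 5′ to 3′, and capitals mark every match to an E-box (CANNTG), a CArG box or a TATA box (TATAAA), searched on both strands. The *Tnmd* run covers chrX:133850758-133850979, 222 bases that end before the first annotated exon, *Chodl* chr16:78930698-78930947, *C1qtnf3* chr15:10952082-10952331, and *Egr2* chr10:67537619-67537868, which lies before 1 of its 5 RefSeq starts.
Tnmd: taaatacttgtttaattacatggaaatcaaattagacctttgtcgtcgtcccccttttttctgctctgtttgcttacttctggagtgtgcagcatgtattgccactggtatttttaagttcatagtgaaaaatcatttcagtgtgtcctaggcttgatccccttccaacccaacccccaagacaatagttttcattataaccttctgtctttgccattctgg
Chodl: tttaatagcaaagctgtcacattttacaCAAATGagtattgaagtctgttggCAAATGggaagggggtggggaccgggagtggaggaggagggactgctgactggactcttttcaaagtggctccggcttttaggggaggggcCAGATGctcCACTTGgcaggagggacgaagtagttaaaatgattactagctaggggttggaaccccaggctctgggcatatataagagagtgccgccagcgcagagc
C1qtnf3: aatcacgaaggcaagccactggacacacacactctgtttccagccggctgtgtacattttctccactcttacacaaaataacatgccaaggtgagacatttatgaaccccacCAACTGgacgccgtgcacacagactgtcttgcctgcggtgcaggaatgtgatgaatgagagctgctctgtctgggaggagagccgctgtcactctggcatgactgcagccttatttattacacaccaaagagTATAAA
Egr2: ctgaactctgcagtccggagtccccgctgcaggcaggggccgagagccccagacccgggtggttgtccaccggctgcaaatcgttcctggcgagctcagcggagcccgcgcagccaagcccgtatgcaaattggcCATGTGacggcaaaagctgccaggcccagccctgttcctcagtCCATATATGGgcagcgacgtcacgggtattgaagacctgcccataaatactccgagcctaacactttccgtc
The *Chodl* run held 4 E-boxes, which start 222, 198, 107 and 98 bases before the transcript start. *C1qtnf3* held 1 E-box, 138 bases before its start, and a match to the TATA box letters that begins 6 bases before the start. Whether these letters act as a TATA box was not tested. The *Egr2* run held 1 E-box and, 72 bases before the start, 1 CArG box. Of the windows before its other starts, that at 67535499 held no CArG box and the rest held 1 each. In the full 250 bases of *Tnmd* none of these letters were found, and none of the 4 runs held the EGR site GCGNGGGCG. Over all 32851 RefSeq promoter windows of the same length, 66.2% held an E-box, 12.4% the TATA box, 4.70% the EGR site and 1.47% a CArG box, so that an E-box is the common case and a CArG box a rare one.

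The libraries held 20774645 to 28515403 counts each, of which ribosomal RNA genes took 18.7% to 33.6%. Levels are given as CPM, counts scaled to the TMM-adjusted depth of each library, which allows for differences in composition. *Fgfr2*, the targeted gene, was higher in the libraries labelled as its knockout, at 318 ± 32.8 CPM against 199.5 ± 21.7 CPM (SD, n = 5). Its log2 fold change was 0.67 (SE 0.090, edgeR adjusted p = 0.0487), and the call was lost without any 1 of 8 libraries, all but control replicate 2 and mutant replicate 2. It was also lost with a replicate block (adjusted p = 0.427, edgeR), with library size as the only scaling (0.152), with no filter on low counts (0.0557), and with *Xist* (0.0622) or the osteoblast markers (0.9996) as a covariate. In all the fits that lost the call the log2 fold change was 0.63 to 0.71. This direction goes against the label. A gene-level count adds up transcripts of intact and recombined alleles, and the groups are therefore named by label, as control-labelled and mutant-labelled. Some libraries stood apart from the rest. Control-labelled replicate 2 and mutant-labelled replicate 1 were high in skeletal muscle transcripts, with the embryonic myosin gene *Myh3* at 156 and 130 CPM against 1.30 to 35.3 CPM in the other 8 libraries. Mutant-labelled replicate 2 was high in neuron transcripts, with *Neurod6* at 62.6 CPM against at most 9.36 CPM elsewhere. Bone markers were abundant in every library and keratinocyte markers scarce, with *Krt5* at 1.07 ± 0.375 CPM in the control-labelled libraries (SD, n = 5).

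Of the 7 genes, 5 had a higher mean in the mutant-labelled libraries (*Chodl*, *Tnmd*, *C1qtnf3*, *Scx* and *Mkx*) and 2 a lower one (*Egr2* and *Egr1*). The median log2 fold change of the 7 was 0.35, beside 0.00073 over all genes tested. *Chodl* had the largest difference, 1.93-fold, followed by *Tnmd* at 1.495-fold, and these were the 2 genes whose libraries did not overlap between the labels. Over all genes, 0.781% had all 5 mutant-labelled libraries above all 5 control-labelled ones and 0.701% had all below. None of the 7 passed an adjusted p-value of 0.05 in edgeR, which called 0.0184% of genes (3 of 16267), or in limma voom, which called 0.0184%. DESeq2 called *Tnmd* and *Chodl*, with 0.615% of genes called. At an unadjusted p-value under 0.05 in edgeR there were 5 of the 7, all higher, where 3.68% of all genes were higher and 3.82% lower. *Chodl* was among the genes edgeR called without mutant-labelled replicate 2 (0.0366% of genes) and, in a fit added after seeing the data, without the 3 libraries high in muscle or neuron transcripts (0.0363%), and both fits leave out its lowest mutant-labelled library. As the members were chosen in part on this contrast, nothing is read from these counts. In bulk tissue, more cells of a type and more RNA per cell cannot be told apart, and this holds for every difference below.

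**Figure D1:**
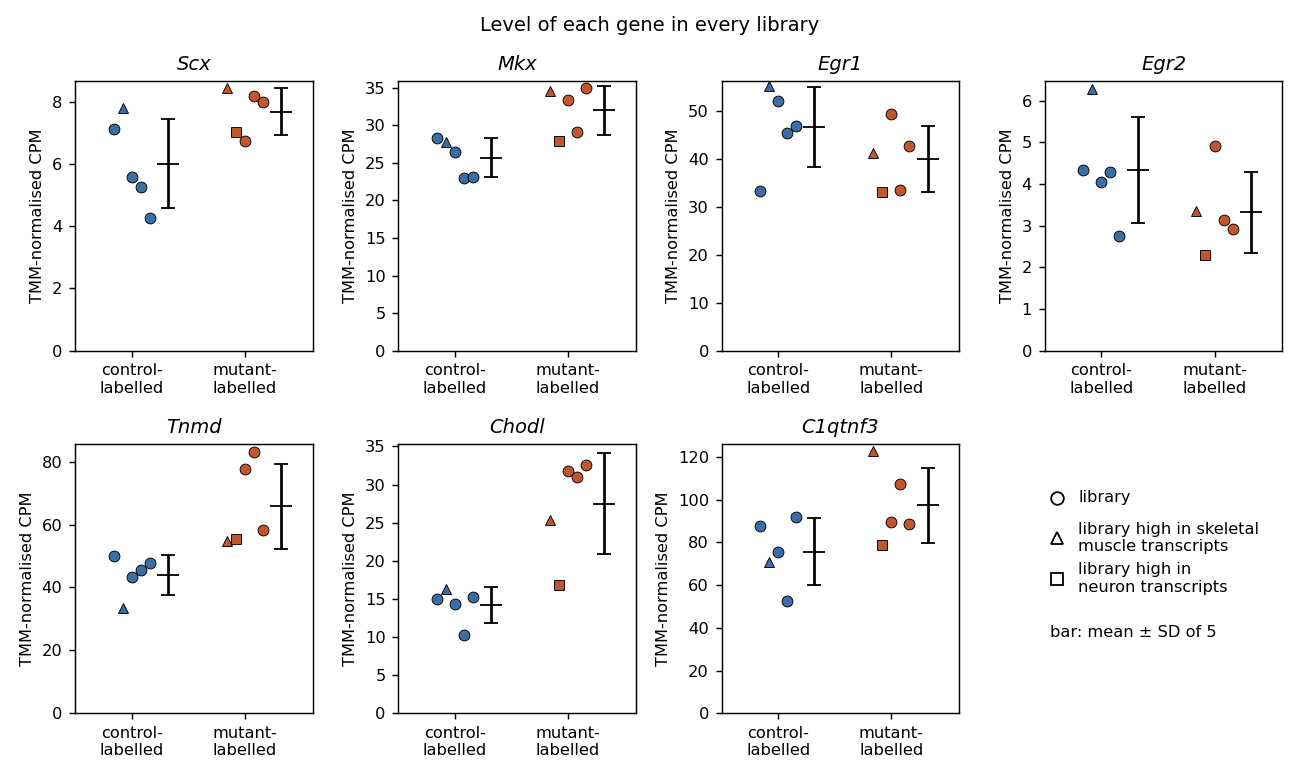
Level of the 7 genes in each of the 10 libraries, in TMM-normalised CPM on axes that start at 0, with the mean and SD of 5 libraries as bars; triangles and squares mark the libraries high in muscle or neuron transcripts. For *Tnmd* and *Chodl* all mutant-labelled libraries lie above all control-labelled ones, and for the other 5 genes the labels overlap.

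Scleraxis (*Scx*, ENSMUSG00000034161.8) lies on chromosome 15 from 76457452 to 76459458 on the plus strand, and its 2 annotated transcripts together cover all 2007 bases of that span. It was at 7.12, 7.79, 5.57, 5.27 and 4.27 CPM in control-labelled replicates 1 to 5, and at 8.45, 7.04, 6.72, 8.17 and 7.99 CPM in mutant-labelled replicates 1 to 5. All 5 mutant-labelled libraries were above the control-labelled median, 3 were above the highest control-labelled library, and the labels overlapped through control-labelled replicates 1 and 2. The log2 fold change was 0.35 (standard error 0.155). The gene rested on 101 to 227 counts per library, where counting alone gives a coefficient of variation of up to 9.95% in the library with the fewest. The control-labelled libraries varied by 23.8% and the mutant-labelled ones by 9.82%. Control-labelled replicate 2 and mutant-labelled replicate 1, the libraries with the muscle transcripts, had the highest *Scx* of their labels. Without these and the neuron-rich library the log2 fold change was 0.46.

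Mohawk (*Mkx*, ENSMUSG00000061013.6) spans 6934518 to 7004780 on the minus strand of chromosome 18 and overlaps the same-strand gene *AC148004.2* over 201 exonic bases, where the counting could have split reads. Its levels were 28.3, 27.8, 26.4, 22.9 and 23.1 CPM in the control-labelled replicates and 34.6, 27.9, 33.4, 29.2 and 35.0 CPM in the mutant-labelled ones. It was the least variable of the 7 genes within the control-labelled libraries, with a coefficient of variation of 9.92%, and at 10.2% it was second to *Scx* in the mutant-labelled ones. All but mutant-labelled replicate 2 lay above the highest control-labelled library. That library, the one rich in neuron transcripts, had 27.9 CPM and overlapped with control-labelled replicate 1. The log2 fold change was 0.31 (standard error 0.086), the smallest of the 5 positive ones.

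*Egr1* (ENSMUSG00000038418.7, chromosome 18 from 34859823 to 34864984, plus strand) was at 33.4, 55.2, 52.1, 45.4 and 47.0 CPM in control-labelled replicates 1 to 5. In mutant-labelled replicates 1 to 5 it was at 41.3, 33.2, 49.4, 33.5 and 42.7 CPM. The ranges lay almost on top of each other, with 4 of 5 mutant-labelled libraries below the control-labelled median, and the log2 fold change was −0.22 (standard error 0.141). *Egr2* (ENSMUSG00000037868.15, chromosome 10 from 67535475 to 67542188, plus strand) was the lowest of the 7, at 4.34, 6.28, 4.04, 4.29 and 2.75 CPM in the control-labelled libraries. It was at 3.34, 2.31, 4.92, 3.15 and 2.91 CPM in the mutant-labelled ones, again with 4 of 5 below the control-labelled median. With 58 to 183 counts per library, *Egr2* varied by 29.1% and 29.3% within the labels, the widest spread of the 7. Its log2 fold change of −0.39 (standard error 0.236) was −0.07 without the 3 libraries high in muscle or neuron transcripts, and that of *Egr1* was −0.08. The highest control-labelled value of both genes was in the muscle-rich replicate 2, and the lowest mutant-labelled value of both in the neuron-rich replicate 2.

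Tenomodulin (*Tnmd*, ENSMUSG00000031250.8) is X-linked, from 133850980 to 133865577 on the plus strand, and was at 50.0, 33.5, 43.5, 45.5 and 47.8 CPM in control-labelled replicates 1 to 5. Mutant-labelled replicates 1 to 5 had 54.7, 55.4, 77.7, 83.2 and 58.3 CPM. The labels did not overlap, and replicates 3 and 4 set the upper end of the mutant-labelled range. The log2 fold change was 0.58 (standard error 0.141). By *Xist* counts each label held 3 libraries with and 2 without this transcript of the inactive X chromosome. *Tnmd* was at 54.7 to 83.2 CPM in mutant-labelled libraries with *Xist* and at 55.4 to 77.7 CPM in those without, and with *Xist* as a covariate its log2 fold change was 0.59. Both muscle-rich libraries had the lowest *Tnmd* of their label, in contrast to *Scx*, which was highest there.

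Chondrolectin (*Chodl*, ENSMUSG00000022860.15, chromosome 16 from 78930948 to 78951733, plus strand) was at 14.9, 16.3, 14.3, 10.3 and 15.3 CPM in control-labelled replicates 1 to 5. Mutant-labelled replicates 1 to 5 had 25.4, 16.8, 31.8, 31.0 and 32.6 CPM. The labels did not overlap, but mutant-labelled replicate 2 lay just above the highest control-labelled library. The log2 fold change was 0.95 (standard error 0.177). Without the neuron-rich mutant-labelled replicate 2 it was 1.09 and without all 3 libraries high in muscle or neuron transcripts 1.22.

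*C1qtnf3* (ENSMUSG00000058914.12, chromosome 15 from 10952332 to 10980150, plus strand) had the highest CPM of the 7 genes. It was at 87.6, 70.8, 75.6, 52.5 and 91.9 CPM in control-labelled replicates 1 to 5 and at 123, 78.5, 89.7, 107 and 88.4 CPM in the mutant-labelled ones. Only mutant-labelled replicates 1 and 4 were above the highest control-labelled library, and the other 3 lay within the control-labelled range. The log2 fold change was 0.36 (standard error 0.154), with coefficients of variation of 20.5% and 18.0% within the labels against a counting error of at most 2.79%. The fold change was 0.28 without mutant-labelled replicate 1, which had the highest level, and 0.25 without both muscle-rich libraries. Without all 3 libraries high in muscle or neuron transcripts it was 0.31.

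To compare levels between genes, CPM was divided by the kilobases of merged exons in GENCODE M21. On this scale *Tnmd* was the most abundant in the control-labelled libraries, at 32.6 ± 4.73 CPM per kilobase (SD, n = 5), above 95.2% of 15991 genes ranked. *C1qtnf3* followed at 29.6 ± 6.08, *Egr1* at 10.4 ± 1.86 and *Mkx* at 6.28 ± 0.623 CPM per kilobase. *Scx* was at 2.99 ± 0.711, *Chodl* at 2.59 ± 0.421 and *Egr2* at 1.28 ± 0.372 CPM per kilobase, the last above 31.8% of genes. Neighbours in this order whose libraries overlapped were *Tnmd* with *C1qtnf3* and *Scx* with *Chodl*. In the mutant-labelled libraries *Tnmd* was again first, at 48.7 ± 9.995 CPM per kilobase, and *C1qtnf3* second at 38.0 ± 6.85. *Chodl* stood above *Scx* there, at 5.01 ± 1.21 against 3.82 ± 0.376 CPM per kilobase, though the libraries of the 2 genes still overlapped, as did those of *Tnmd* with *C1qtnf3* and of *Egr1* with *Mkx*.

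Bone and cartilage markers were summed for the same libraries, and none of them passed an adjusted p-value of 0.05 in edgeR. The summed level of 17 osteoblast markers was 8468 to 10506 CPM in the control-labelled and 6395 to 8376 CPM in the mutant-labelled libraries, with no overlap, and 16 of the 17 had a lower mean. The 3 osteoblast markers with the lowest p-values were *Dmp1*, *Alpl* and *Ibsp*, at log2 fold changes of −0.58, −0.38 and −0.58. Of 11 chondrocyte markers 8 were higher and 3 lower in mean, and their sum was 331 to 417 CPM against 429 to 483 CPM. The 3 with the lowest p-values were the cartilage collagen genes *Col9a2* and *Col2a1*, with no overlap between the labels, and *Ucma*, at log2 fold changes of 0.37, 0.88 and 0.87. DESeq2 called all of these bone and cartilage genes but *Ucma*. With the mean log2 CPM of the osteoblast markers as a covariate, standard errors grew. The log2 fold changes of *Chodl*, *Tnmd* and *Mkx* were then 0.99, 0.71 and 0.36 (SE 0.277, 0.237 and 0.141). Those of *C1qtnf3* and *Scx* were 0.06 and 0.13 (SE 0.234 and 0.239), and those of *Egr1* and *Egr2* −0.07 and −0.33 (SE 0.219 and 0.372). The covariate itself differs between the labels, and no test compared the genes.

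**Figure D2:**
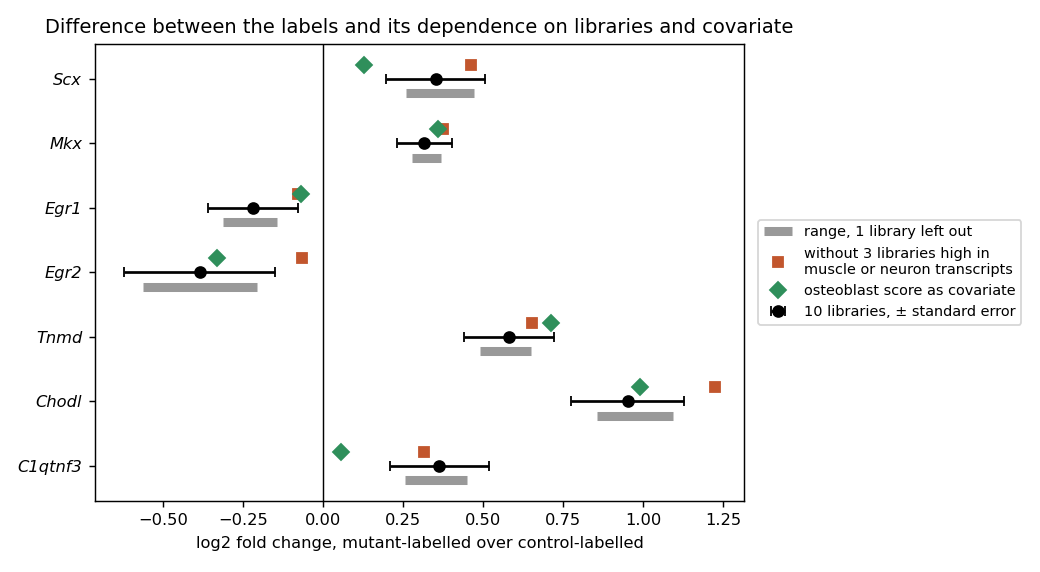
Log2 fold change of each gene between mutant-labelled and control-labelled libraries, with its standard error (black), the range when 1 library is left out (grey bar), the value without the 3 libraries high in muscle or neuron transcripts (squares) and the value with the osteoblast marker score as a covariate (diamonds). With the covariate *Chodl*, *Tnmd* and *Mkx* are at 0.99, 0.71 and 0.36 and *C1qtnf3* and *Scx* at 0.06 and 0.13, with standard errors of 0.141 to 0.277 for these 5.

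Other genes of tendon biology were taken from lists of regulators, ligands and receptors, and matrix genes. Of 13 tendon regulators tested, 6 were higher and 7 lower in mean, with a median log2 fold change of −0.0025. The lowest p-values belonged to *Nab2*, *Smad3* and *Meox1*. *Nab2*, a corepressor that binds EGR proteins, averaged 62.0 ± 2.61 CPM under the control label and 55.8 ± 4.41 CPM under the mutant label (SD, n = 5), or −0.15 on the log2 scale (edgeR, adjusted p = 0.634). *Smad3*, which carries TGFβ signals to the nucleus, and the homeobox gene *Meox1* had log2 fold changes of −0.07 and −0.14, which were −0.03 without mutant-labelled replicate 2 and −0.08 without control-labelled replicate 3. Without the 3 libraries high in muscle or neuron transcripts *Nab2*, *Smad3* and *Meox1* were at −0.10, −0.01 and −0.05. *Sox9*, the cartilage factor that shares progenitors with *Scx*, was at 17.9 ± 2.01 and 17.7 ± 0.945 CPM and was named after its values were seen. Of 12 ligands and receptors tested, 7 were higher and 5 lower. *Tgfb1* averaged 138 ± 10.7 against 115 ± 11.4 CPM, or −0.26 on the log2 scale (edgeR, adjusted p = 0.432), and the receptor gene *Tgfbr2* had 0.12. *Gdf7* had 0.72, at means of 0.646 and 1.08 CPM that rest on few counts.

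Of 27 tendon matrix genes tested, 18 were higher and 9 lower in mean, with a median log2 fold change of 0.05. *Matn4*, a matrilin of loose and dense connective tissue, averaged 84.3 ± 11.1 CPM under the control label and 132 ± 23.6 CPM under the mutant label with no overlap, or 0.64 on the log2 scale (SE 0.125, edgeR, adjusted p = 0.184). As with *Tnmd*, mutant-labelled replicates 3 and 4 had its highest levels. The thrombospondin gene *Thbs2* had a log2 fold change of 0.28 and the tenascin gene *Tnc* one of −0.25, with adjusted p = 0.639 and 0.595 in edgeR, and *Thbs2* was at 0.47 without the 3 libraries high in muscle or neuron transcripts. The fibrillar collagen genes that make up most of a tendon, which bone also makes in bulk, differed less, with *Col1a1* at a log2 fold change of −0.05 and *Col1a2* at −0.02. Without the 3 libraries high in muscle or neuron transcripts the median of the matrix list was 0.16 over 28 genes, beside 0.0032 over all genes of that fit. No gene of these 3 lists passed an adjusted p-value of 0.05 in edgeR, while *Matn4* did in DESeq2.

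Relatives of the 7 genes were read beside them. *Cnmd*, which encodes chondromodulin and is the paralog of *Tnmd*, averaged 5.74 ± 1.17 CPM under the control label and 9.05 ± 1.27 CPM under the mutant label (SD, n = 5) with no overlap, or 0.65 on the log2 scale (SE 0.148, edgeR, adjusted p = 0.296). *Egr3*, which like *Egr1* and *Egr2* encodes an EGR zinc finger factor, averaged 22.8 ± 2.22 and 16.0 ± 3.20 CPM, or −0.51 on the log2 scale (SE 0.125, edgeR, adjusted p = 0.326). The 3 tested EGR genes therefore all had a lower mean in the mutant-labelled libraries. *C1qtnf2*, of the family of *C1qtnf3*, had a log2 fold change of 0.26 (adjusted p = 0.635, edgeR). Over the 12 relatives tested, 6 were higher and 6 lower, and of the 3 named DESeq2 called *Cnmd* and *Egr3*. Of 29 other immediate early genes tested, 10 were higher and 19 lower, with a median log2 fold change of −0.08. Among them *Fos*, *Klf10* and *Dusp1* had −0.65, −0.18 and −0.28, with adjusted p-values of 0.634, 0.642 and 0.653 in edgeR. Without control-labelled replicate 3 *Fos* was at −0.39 and *Dusp1* at −0.17, and without mutant-labelled replicate 4 *Klf10* was at −0.12. All 5 markers of ectocranial mesenchyme and hypodermis listed beside *C1qtnf3* had a higher mean, with *Fgf18*, *Fgf9* and *Igfbp3* at log2 fold changes of 0.62, 0.30 and 0.18, and none passed the adjusted threshold. *Igfbp3* was at 0.12 without mutant-labelled replicate 1 and at 0.06 without both muscle-rich libraries. The higher mean of *Clec3b*, 1 of the 5, came from mutant-labelled replicate 1, at 45.2 CPM against 0.984 to 4.17 CPM in the other mutant-labelled and 2.13 to 13.8 CPM in the control-labelled libraries. With the osteoblast score as a covariate, several genes named above came closer to 0, with *Nab2* at −0.02, *Tgfb1* at −0.04, *Tnc* at −0.06, *Egr3* at −0.24, *Cnmd* at 0.22 and *Fgf18* at 0.23, while *Fgf9* was at 0.61.

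**Figure D3:**
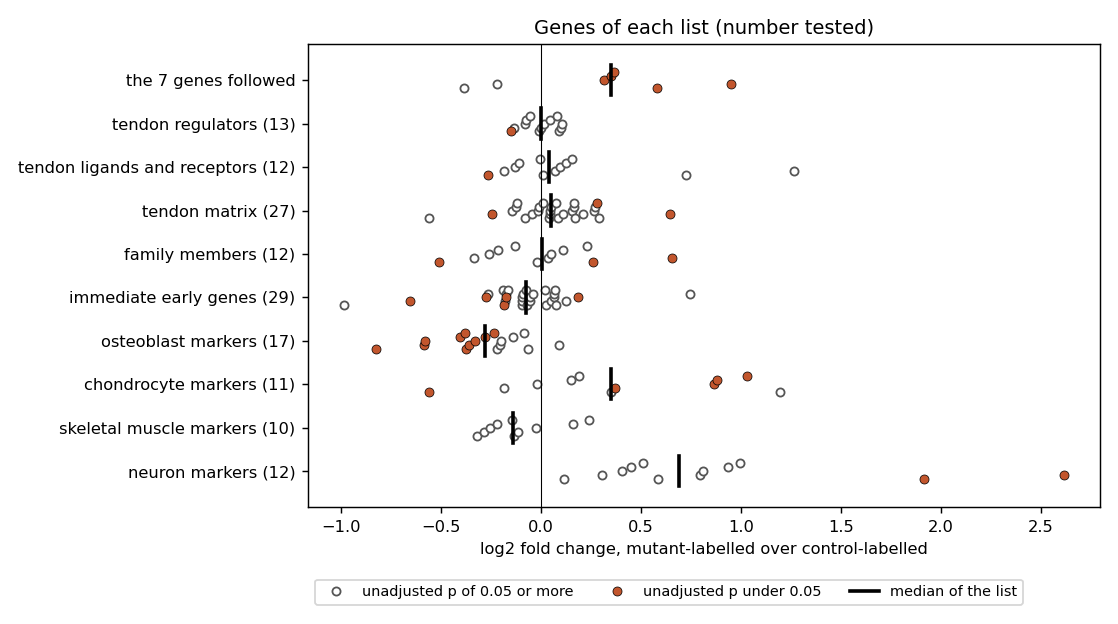
Log2 fold change of every tested gene in each list drawn, mutant-labelled over control-labelled, with the list's median as a bar and genes with an unadjusted edgeR p-value under 0.05 filled. The tendon regulator, ligand and matrix lists centre near 0 (medians −0.0025, 0.04 and 0.05), and the 7 genes, which were chosen in part on this contrast, have a median of 0.35.

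Levels of other cell types were read for the same libraries. Of 10 skeletal muscle markers 2 were higher and 8 lower in mean, with summed levels of 30.3 to 793 CPM in the control-labelled and 31.2 to 782 CPM in the mutant-labelled libraries, and *Myog*, *Myod1* and *Pax7* were too low to test. All 12 neuron markers had a higher mean in the mutant-labelled libraries, at 73.5 to 182 against 78.7 to 641 CPM summed, and without the 3 libraries that stood apart their median log2 fold change was 0.20 in place of 0.69, beside 0.0032 over all genes. Counts of higher and lower means were 4 and 3 for epidermis, 3 and 6 for meninges, 7 and 3 for endothelium, 2 and 8 for macrophages, 1 and 7 for osteoclasts, and 3 and 4 for erythroid genes. No gene in these lists passed the adjusted threshold in edgeR. The 3 genes of lowest p-value in each list are given by their log2 fold changes. In muscle, *Actn3* was at 0.16, *Tnni2* at −0.32 and *Tnnt3* at −0.29. In neurons, *Nefl* was at 1.92, *Neurod6* at 2.62 and *Snap25* at 0.94, which were 0.29, 1.31 and 0.20 without the 3 libraries. In epidermis, *Krt10* was at −0.25, *Krt5* at 0.52 and *Perp* at −0.28, and in meninges *Nppc* was at −0.71, *Ogn* at 0.24 and *Foxc1* at −0.09. In endothelium, *Erg* was at 0.30, *Cldn5* at 0.10 and *Tek* at 0.07. In macrophages, the lysozyme gene *Lyz2* was at 0.63 with no overlap and was called by DESeq2, while *Csf1r* was at −0.18 and *Cd68* at −0.23. In osteoclasts, *Calcr* was at −0.54, *Atp6v0d2* at −0.27 and *Oscar* at −0.26, and the globin genes *Hba-a2*, *Hbb-bs* and *Hba-a1* were at −0.36, −0.28 and −0.30. Of these 24 values, 18 moved by over 1.5 times when 1 library was left out, all but those of *Erg*, *Lyz2*, *Cd68*, *Nppc*, *Ogn* and *Calcr*. The part of these cell types in the differences of the 7 genes was not tested, beyond the values without the 3 libraries given above.

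To see whether the 7 genes vary together from library to library, the mean of each label was removed from log2 CPM and Pearson's r was computed for the 21 pairs over the 10 libraries. Of the 21 pairs 14 were positive and 7 negative, with a median r of 0.28. No pair passed an adjusted p-value of 0.05, and none had an unadjusted p-value under 0.05, in two-sided exact permutation tests over all 14400 orders of the libraries within labels. The strongest relation was between the transcription factors *Scx* and *Mkx*, with r = 0.64 and Spearman's rho = 0.65 (exact permutation p = 0.0558 and 0.0639, adjusted p = 0.590 for r). Without control-labelled replicates 4 and 5, the 2 libraries farthest from the median of *Scx*, r was 0.33. The relation therefore rests in part on the low *Scx* and *Mkx* of these 2 libraries. *Mkx* was also near *Chodl* (r = 0.61) and *Egr2* (r = 0.58), *Scx* near *Egr2* (r = 0.54) and *Chodl* near *C1qtnf3* (r = 0.52), each with an adjusted exact permutation p of 0.590. Spearman's rho of these 4 pairs was 0.52, 0.47, 0.42 and 0.05 (exact permutation p = 0.154, 0.208, 0.255 and 0.899), so that the ranks of *Chodl* and *C1qtnf3* were hardly related. Without the 2 libraries farthest from the median of the first gene, r was 0.62, 0.76, 0.18 and 0.78. Without 1 library the lowest r was 0.38 for *Mkx* with *Chodl* (mutant-labelled replicate 2 left out), 0.45 for *Mkx* with *Egr2* (mutant-labelled replicate 2), 0.23 for *Scx* with *Egr2* (control-labelled replicate 5) and 0.27 for *Chodl* with *C1qtnf3* (control-labelled replicate 4). *Egr1* and *Egr2*, which share upstream signals, had r = 0.48 and rho = 0.42 (exact permutation p = 0.191 and 0.262), with r = 0.62 without the 2 libraries farthest in *Egr1* and 0.28 without mutant-labelled replicate 3.

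*Tnmd* had r of −0.37 with *Scx*, −0.30 with *Egr1*, −0.26 with *Mkx* and −0.03 with *Egr2*, and rho of −0.37, −0.25, −0.10 and −0.01. It was positive with *Chodl* (r = 0.28, rho = 0.24) and *C1qtnf3* (r = 0.19, rho = 0.12). Without 1 library, *Tnmd* with *Chodl* ranged from 0.0077 (mutant-labelled replicate 2) to 0.54 (control-labelled replicate 2). Without the 2 libraries farthest in the first gene of the pair, *Mkx* with *Tnmd* was at 0.01 and *Egr2* with *Tnmd* at 0.27. Without 1 library, *Egr2* with *Tnmd* ranged from −0.36 (mutant-labelled replicate 3) to 0.44 (control-labelled replicate 2), so that no sign is read from it. *Egr1* with *Tnmd* ranged from −0.62 (mutant-labelled replicate 3) to −0.10 (control-labelled replicate 2), and *Mkx* with *Tnmd* from −0.55 (mutant-labelled replicate 2) to −0.09 (mutant-labelled replicate 4). The lowest of all pairs was *Scx* with *Tnmd*, a factor and its known target, at r = −0.37 and Spearman's rho = −0.37 (exact permutation p = 0.298 and 0.299, adjusted p = 0.700 for r), and −0.29 without control-labelled replicates 4 and 5. Its sign depended on which libraries were included, and no sign is read from it. Without the 2 muscle-rich libraries r was 0.12, without control-labelled replicate 2 alone it was −0.02, and without control-labelled replicate 1 it was −0.56. In both muscle-rich libraries *Scx* was the highest and *Tnmd* the lowest of the label. In mutant-labelled replicate 1 the margin was narrow, with *Tnmd* at 54.7 CPM against 55.4 CPM in replicate 2. Whether muscle content has a part in this was not tested. Removing mutant-labelled replicate 3 brought *Scx* and *Egr2* to r = 0.90, the 1 pair and library with an adjusted exact permutation p under 0.05 (0.0365). That p-value is adjusted over the pairs of 1 run and not over the libraries left out in turn, so that nothing is read from it.

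**Figure D4:**
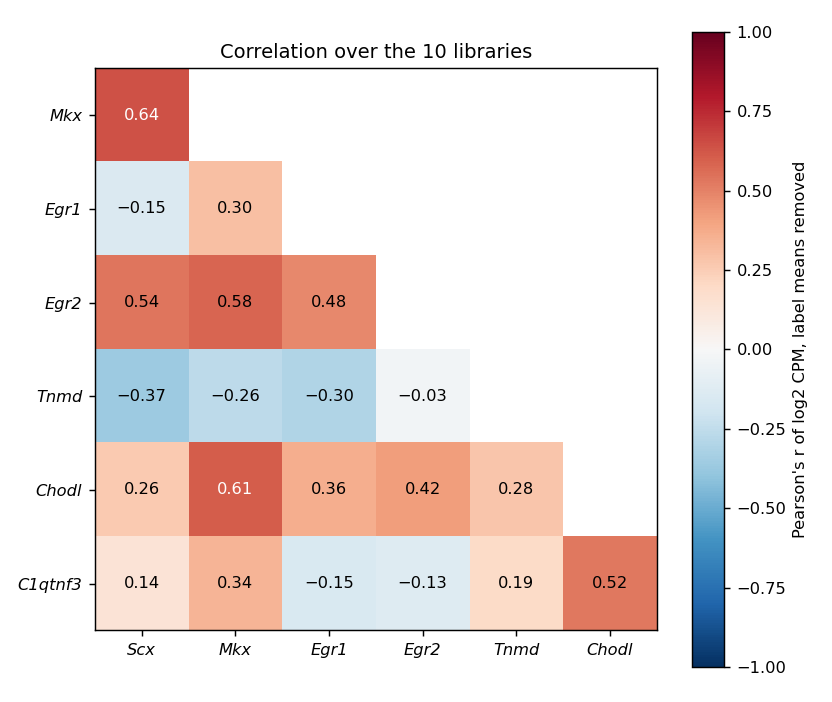
Pearson's r of log2 CPM over the 10 libraries after the mean of each label was removed, for the 21 pairs of genes, on a colour scale from −1 (blue) to 1 (red). *Mkx* is positive with *Scx*, *Egr2* and *Chodl* at 0.64, 0.58 and 0.61. *Tnmd* is at 0.28 with *Chodl* and 0.19 with *C1qtnf3*. It is at −0.37 with *Scx* and −0.03 with *Egr2*, signs that change when libraries are left out.

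The genes most like each of the 7 were ranked by the same r over the 10 libraries among 11014 other genes of at least 5 CPM (11015 for *Egr2*, itself below that level), and are named as a description, since all points share the depth and tissue content of the same libraries. For *Scx* these were *Tram1l1*, *Zfp383* and *Cacna2d2* (r = 0.95, 0.95 and 0.93). For *Mkx* they were *Ahnak*, *Ube4b* and *Ahdc1* (r = 0.98, 0.95 and 0.95), and for *Egr2* *Oplah*, *Lipe* and *Lztr1* (r = 0.97, 0.95 and 0.94). For *Egr1* they were *Fbxo32*, *Ehd3* and *Klf2* (r = 0.97, 0.96 and 0.94), the last an immediate early gene too. For *Tnmd* they were *Rce1*, *Igfbp2* and *Crnkl1* (r = 0.96, 0.95 and 0.95), and for *Chodl* *Pard3*, *Dmac2* and *Ntn3* (r = 0.93, 0.93 and 0.91). *C1qtnf3* was nearest to *Col8a1*, a short-chain collagen gene, then *Ints2* and *Prkd1* (r = 0.95, 0.91 and 0.91). *Col8a1* averaged 195 CPM under the control label and 269 CPM under the mutant label. None of these genes was another of the 7. Between 3.41% of genes, for *Scx*, and 29.9%, for *Tnmd*, were closer to a gene of the 7 than its nearest partner among them.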

How the data were processed

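The authors excised the AF region at E18.5, made stranded libraries from total RNA and sequenced them as single 50-base reads. The submitters' processing notes name Partek and mm10, and the aligner, the counter and its use of strand are not given in the sources used here. The authors deposited their estimated counts as a single table with genes in rows, not scaled between libraries, in which 66.4% of values were whole. All columns were matched to the labels by library name.

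Estimated counts were rounded and fitted with edgeR 4.0.16 in R 4.3.3 (TMM, expression filter, quasi-likelihood test on label, Benjamini-Hochberg adjustment over 16267 genes, threshold 0.05), and alternatives used DESeq2 1.42.0 and limma 3.58.1. Log2 CPM used a prior count of 0.5. Correlations used Python 3.11.15 with exact permutation within labels. The script was tested on simulated data. The biological coefficient of variation was 18.9%, libraries of one label correlated at 0.955 to 0.980, and none were duplicates, the lowest chi-square per degree of freedom between 2 libraries being 7.56. Of the symbols, 22288 of 22533 found in GENCODE M21 had its start and end, once 1 base was taken from the table's stop, and positions are those of M21. The 7 genes and all 16 other lists were chosen with earlier results of these data known. Genes named are the 7, *Fgfr2*, the 3 of lowest p-value in each list, the 3 nearest to each of the 7, and the pairs of highest and lowest r. *Sox9*, *Col1a1*, *Col1a2*, *Clec3b*, *Myh3* and other pairs were named after their values were seen. Alternatives were other scalings and filters, a replicate block, covariates, and leaving out libraries. Leaving out the muscle- and neuron-rich libraries and an unadjusted threshold were added after seeing the data.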

Additional observations from a re-analysis of the deposited data

Results flagged for a closer look

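Of 48 groups of 5 libraries examined for a library far from the others (the 7 genes, *Fgfr2* and the summed level of each list, for each label), 4 held one, where chance gives about 1 in 20. None concerned the 7 genes themselves. The skeletal muscle markers summed to 793 CPM in control-labelled replicate 2, against 30.3 to 168 CPM in the other control-labelled libraries, and to 782 CPM in mutant-labelled replicate 1, against 31.2 to 142 CPM. The immediate early genes were low in control-labelled replicate 5, at 908 CPM against 1036 to 1085 CPM. This library also had the lowest *Egr2* and *Scx* of its label, while its *Egr1*, at 47.0 CPM, was the median of the label. The osteoclast markers were high in mutant-labelled replicate 5, at 2829 CPM against 2511 to 2592 CPM.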

How the results depend on the processing

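The log2 fold changes of the 7 genes kept their sign in all 154 fits under alternatives, of which 4 gained a call, *Tnmd* by DESeq2 and *Chodl* by DESeq2, without mutant-labelled replicate 2 and without the 3 libraries high in muscle or neuron transcripts, from which nothing is read since these genes were chosen in part on this contrast. The number of genes past the threshold, 3, was 1 with library size as the only scaling, 1 with *Xist* and 1 with the osteoblast score as a covariate, 98 by DESeq2, 1219 without adjustment and 6 without the 3 libraries, and 1 to 6 without 1 library. With a replicate block it was 1, and no call of the 7 genes changed. Same-numbered libraries did not deviate together (correlations of −0.20, 0.14, −0.21, 0.03 and −0.14), so the numbers were not taken as pairs. The number of pairs past the threshold, 0, was 1 (*Mkx* and *Chodl*) with no label means removed and 0 to 1 without 1 library. *Scx* with *Tnmd* changed sign, to r = 0.30 with no label means removed, 0.12 without the muscle-rich libraries and 0.0228 without all 3. With no label means removed, r includes the difference between the labels on which the 7 genes were in part chosen. Nothing is read from the call of *Mkx* and *Chodl* or the sign of *Scx* with *Tnmd* in that setting. Among other genes named, the osteoblast score turned the sign of *Smad3* (0.0645), *Fos* (0.14), *Klf10* (0.0051), *Dusp1* (0.0249), *Igfbp3* (−0.0020), *Krt5* (−0.53), *Neurod6* (−0.41), *Snap25* (−0.68), *Foxc1* (0.0180), *Csf1r* (0.0486) and *Oscar* (0.0207). Without 1 library *Tnni2* ranged from −1.48 to 0.60, *Tnnt3* from −1.52 to 0.79 and *Tek* from −0.00014 to 0.15, and *Tek* was at −0.0375 without the muscle-rich libraries. The cause of these changes was not tested. Depth gave a counting error of up to 13.1% for *Egr2* and 9.95% for *Scx*, in the library with the fewest counts.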
